A study of Rattus norvegicus with 30 samples.

Results

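In the cortex of E14.5 rat embryos, 11600 of the 113056 distinct H3K4me3 intervals of the control list were at least 600 bp and under 2000 bp wide and overlapped, by at least 1 bp, an H3K27me3 interval of the control list that was 1000 bp or wider. These intervals, the members, were thus selected on the width of control H3K4me3 and on the presence and width of control H3K27me3, and statements on those values below are descriptions and not tests. They were 30.2% of the 38406 control H3K4me3 intervals of that width. A listed H3K27me3 interval, weak ones included, was present at all of them by choice, against 40.4% of all control H3K4me3 intervals. The question put to the 10 peak lists was what else these regions carried, how the marks were arranged in them, and how they appeared in embryos of dams on a high fat diet (HFD).

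H3K4me3, trimethylation of lysine 4 of histone H3, is laid down by COMPASS-type methyltransferases and marks the start regions of genes that are active or ready to be transcribed. H3K27me3, trimethylation of lysine 27, is laid down by EZH2 within the Polycomb repressive complex PRC2 and is found over silenced developmental genes. Start regions that carry both marks are known as bivalent in embryonic stem cells and in progenitors of the brain, where they often belong to regulators of cell fate. H4K16Ac, acetylation of lysine 16 of histone H4, loosens the packing of nucleosomes, and total H3 and pan H4 antibodies bind the histones whatever their modification. In a bulk tissue, both marks on one chromatin fibre and each mark in a different cell type cannot be told apart.

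The lists came from ChIP-seq of the frontal cortex of Wistar rat embryos at E14.5 with 5 antibodies in 2 maternal diets, with 3 libraries for each antibody and diet and 30 in all. From weaning on, the control dams ate normal chow and the HFD dams a chow with 60% of its calories from fat, and no other treatment or allele is given in the labels. By the study's methods, the cortices of a whole litter were pooled for a replicate. The authors deposited 1 list per antibody and diet, called on the 3 libraries together, so that the spread between replicates is unknown and no test between the diets was possible. In the labels of 1 library, replicate 3 of control total H3, the title and the peak list named in the description are those of the control diet, whereas the treatment field and the wording of the description name the HFD. It was taken as control, and its share in the list cannot be removed. The regions were not assigned to genes, since no gene annotation of the files' genome build, rn6, was used here, and for the same reason the tissue could not be checked against its marker genes.

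The background recovered from the lists differed between the diets for each antibody, and by far the most for H3K27me3. The check of this recovery, described below, did not cover the H3K27me3 and H4K16Ac lists. The background pileup of a list, the mean number of fragments over a base, was 0.880 in control H3K27me3 and 0.351 in HFD H3K27me3, 39.9% of the control value. It was 1.23 and 1.08 for H3K4me3 (87.7%), 1.61 and 1.75 for H4K16Ac (108.6%), 1.01 and 1.13 for total H3 (111.2%), and 1.64 and 1.80 for pan H4 (109.6%), control first. Thresholds were lenient, with a q-value of up to 0.50 in the lists. A q-value of 0.05 or less was reached by 60.8% of control and 24.1% of HFD H3K27me3 intervals. At 1624 of the 11600 members (14.0%), the control H3K27me3 interval had a q-value above 0.05. Of all H3K27me3 intervals, 16607 in control and 594 in HFD had a −log10 q of at least 5. The listed fold enrichment, as recovered here, has 1 added to both the pileup and the background, so that the same ratio gives a smaller fold in a list of lower background. H3K27me3 fold enrichments are therefore given side by side for the diets and not read as a difference in the level of the mark. The part of depth in the H3K27me3 differences below was not tested.

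One property of the control H3K27me3 list bears on every result that uses it. Across the 11600 members, the −log10 p of control H3K27me3 ranked almost as that of control H3K4me3, with a rank correlation of 0.939. It ranked nearly as closely with HFD H3K4me3, at 0.924 over 11125 members with an interval there. The same mark in the other diet was far less alike, since control and HFD H3K27me3 had a rank correlation of 0.191 over the 8902 members with an interval in both. For comparison, the control and HFD lists of one antibody correlated at 0.944 for H3K4me3, 0.919 for H4K16Ac, 0.809 for total H3 and 0.901 for pan H4. Weak intervals correlated less, and the median −log10 p of HFD H3K27me3 at members was 3.63. In the comparison set without H3K27me3 described below, H3K4me3 had medians of 4.63 in control and 4.65 in HFD. There the H3K4me3 lists of the diets correlated at 0.331 over 5457 intervals. H4K16Ac had medians of 4.88 and 5.08 in that set, and its lists correlated at 0.64 over 8297 intervals. For total H3 and pan H4 the correlations there were 0.546 and 0.54. The part of weak intervals in the low H3K27me3 correlation was not tested. Across members, HFD H3K27me3 stood nearer to H4K16Ac, total H3 and pan H4 of either diet than to HFD H3K4me3, at 0.259 over 8804 members. The values in that order were 0.428, 0.407 and 0.413 with the HFD lists and 0.407, 0.396 and 0.402 with the control lists. In the narrower comparison set described below, control H3K27me3 correlated with control H3K4me3 at 0.901 over 16542 intervals, and over all 45719 control H3K4me3 intervals with H3K27me3 at 0.845, so that the closeness was not confined to the members. The points share the libraries and the depth of their lists, and the correlations are descriptions. Whether H3K4me3 fragments entered the control H3K27me3 libraries was not tested, as only lists called on the libraries together were used here, and not the reads.

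**Figure D1:**
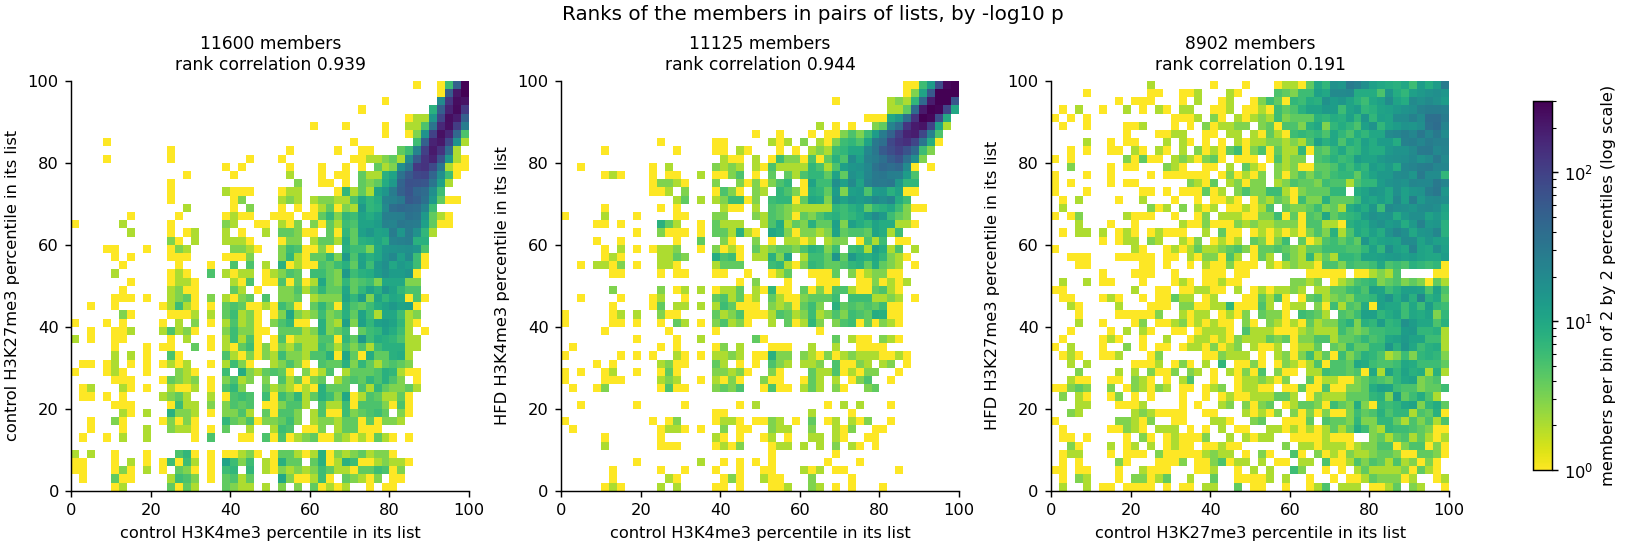
Each panel sets the percentile of a member's strongest interval in one list against its percentile in another, both by −log10 p, and the colour gives the number of members per bin on a log scale. Control H3K27me3 followed control H3K4me3 along a narrow band (0.939), as the H3K4me3 lists of the diets did (0.944), while control and HFD H3K27me3 were scattered (0.191).

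Members were compared with 3 sets of control H3K4me3 intervals. The first held the 16542 intervals of the same width that overlapped narrower H3K27me3 only, the second the 10264 of the same width with no H3K27me3 interval, and the third the 628 intervals of 2000 bp or wider under H3K27me3 of 1000 bp or more. In H3K4me3 itself, members were the stronger part of their width class. The median fold enrichment at the summit, a ratio of the pileup to the local background, was 7.78 in members, 7.02 with narrower H3K27me3 and 3.41 without H3K27me3. The median −log10 p was 30.9, 15.3 and 4.29 in the same order. Their H3K4me3 intervals were also wider within the class, with medians of 1168 bp, 832 bp and 728 bp. Of the members, 4998 (43.1%, 95% Wilson interval 42.2% to 44.0%) had 2 or more H3K4me3 summits, against 14.0% with narrower H3K27me3, 4.59% without H3K27me3 and 97.0% of the intervals of 2000 bp or wider. The order of these shares was that of the H3K4me3 widths of the sets. Over the whole width class the share was 20.3%, and over all control H3K4me3 intervals it was 7.56%.

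In 58.1% of members the H3K27me3 and H3K4me3 intervals had a like extent, with a width ratio of 0.8 to 1.2. H3K27me3 was the wider one in 6908 members (59.6%). The median width was 1351 bp for H3K27me3 (quartiles 1152 bp and 1699 bp, highest 8332 bp) and 1168 bp for H3K4me3 (quartiles 912 bp and 1390 bp). The ratio of the H3K27me3 to the H3K4me3 width had a median of 1.04, the centres were a median of 78 bp apart, and H3K27me3 covered a median of 95.2% of the member. The centres lay within 250 bp of each other in 7565 members (65.2%, 64.3% to 66.1%). The member lay wholly inside its H3K27me3 interval in 2440 cases (21.0%), the H3K27me3 interval lay wholly inside the member in 2593 (22.4%), and in 6645 (57.3%) H3K27me3 ran past one end only. These counts overlap slightly, since intervals that shared an end could fall in more than one of them.

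When members were split by the ratio of the 2 widths, those with intervals of like extent carried the strongest signal. The bands were chosen after the values were seen. In 6743 members (58.1%) the ratio was between 0.8 and 1.2, with a median fold enrichment of 9.97 for H3K4me3 at its summit and 6.29 for H3K27me3 as an average over its interval. In 2370 members (20.4%) it was between 1.2 and 2, with medians of 4.92 and 3.24. In 2202 members (19.0%) H3K27me3 was more than 2 times as wide, with a median width of 2116 bp over an H3K4me3 interval of 754 bp, and the medians of both marks were lowest, at 4.48 and 3.20. In the remaining 285 (2.46%) H3K27me3 was narrower than 0.8 of the H3K4me3 width. As the ratio divides by the H3K4me3 width, a high ratio selects narrow H3K4me3. In 4 groups by the H3K27me3 width itself, with median H3K27me3 widths of 1113 bp, 1356 bp, 1683 bp and 2496 bp, the median H3K4me3 width was 1136 bp, 1326 bp, 1389 bp and 982 bp. The median H3K4me3 fold enrichment over these groups was 9.91, 8.51, 6.98 and 4.71. Along the 3 bands from 0.8 up, the median fold enrichment of total H3 was lower in turn, from 7.52 for a ratio of 0.8 to 1.2 to 5.57 for 1.2 to 2 and 4.89 above 2. H4K16Ac was widest where H3K27me3 was widest for its H3K4me3, with medians of 1395 bp, 1869 bp and 2490 bp over those 3 bands. The band under 0.8 stood outside this order, with a total H3 fold enrichment of 6.77 and an H4K16Ac width of 1735 bp.

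The 11600 members lay under 11188 distinct H3K27me3 intervals, 62.7% of the 17846 control H3K27me3 intervals of 1000 bp or more. Of these, 10784 held 1 member, 396 held 2 and 8 held 3, the most in any. On chromosomes 1 to 20 and X, the share of H3K4me3 intervals of the width class that were members ran from 26.8% on chromosome 11 to 33.9% on chromosome 10. Chromosome Y had 4 members of 23 such intervals, and the unplaced sequences 88 of 334 (26.3%). The median distance from a member to the next was 47.3 kb. Within 5 kb of another member lay 944 of the 11558 members that shared a chromosome or sequence with another (8.17%), against 3.12% of the set with narrower H3K27me3 and 3.25% of the set without. One wide H3K27me3 interval admits every H3K4me3 interval of the width class under it, so that close neighbours are favoured by the rule and nothing is read from the higher share.

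Nearly all members carried intervals of H4K16Ac, total H3 and pan H4. Control H4K16Ac overlapped 11553 of them (99.6%, 99.5% to 99.7%), against 82.8% of all control H3K4me3 intervals. Control total H3 overlapped 11376 (98.1%, 97.8% to 98.3%; background 72.6%) and control pan H4 11486 (99.02%, 98.8% to 99.2%; background 76.8%). The set with narrower H3K27me3 was close to this, with 98.9% for H4K16Ac, 97.8% for total H3 and 98.8% for pan H4, while the set without H3K27me3 had 86.9%, 77.4% and 83.6%. A member was therefore hardly set apart from other H3K4me3 intervals with H3K27me3 by the presence of these intervals. Their widths differed more. Control H4K16Ac of 1000 bp or more overlapped 90.7% of members, 45.7% with narrower H3K27me3 and 46.9% of all control H3K4me3 intervals. For total H3 these shares were 64.7%, 19.0% and 13.6%, and for pan H4 73.0%, 28.3% and 17.8%. Members were also wider in H3K4me3, and the part of that width was not tested. At a −log10 q of at least 5, control H4K16Ac overlapped 65.4% of members and 68.9% of the set with narrower H3K27me3. Over all control H3K4me3 intervals this share was 29.4%. The median fold enrichment of total H3 and pan H4 at members was 6.79 and 6.52, with medians at the 90.1 and 92.2 percentile of their lists. In the set with narrower H3K27me3 the fold enrichments were higher, at 7.94 and 7.42, and the percentiles were 89.2 and 90.9. The median pileup at the summit, recovered from the deposited values of the narrow lists, was 51 fragments for control H3K4me3, 34 for control total H3 and 47 for control pan H4. The summits of total H3 and pan H4 stood at a median distance of 76 bp and 91 bp from the H3K4me3 summit, against 49 bp and 55 bp with narrower H3K27me3 and 97 bp and 104 bp without H3K27me3. The part of this common signal in the H3K27me3 values of the members was not tested.

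In the HFD lists, members again carried H4K16Ac, total H3 and pan H4 intervals. HFD H4K16Ac overlapped 11547 members (99.5%; background 81.6%), HFD total H3 11432 (98.6%; background 73%) and HFD pan H4 11489 (99.04%; background 78.4%). The bases of the members under these intervals had HFD over control ratios of 0.989, 0.987 and 0.992 for H4K16Ac, total H3 and pan H4. At members with an interval in both diets, the median fold enrichment was 3.94 in control and 4.07 in HFD for H4K16Ac, and 6.81 and 6.68 for total H3. For pan H4 it was 6.55 and 7.63, and the HFD value was higher at 78.5% of 11405 members. The same held over all control H3K4me3 intervals, where pan H4 was higher in HFD at 79.3% of 79159, so that this difference was not particular to the members.

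HFD H3K4me3 overlapped 11125 of the 11600 members (95.9%, 95.5% to 96.3%), against a background of 54.9%, and 475 had none. The share was 93.2% with narrower H3K27me3, 53.2% without H3K27me3 and 100% (99.4% to 100%) at 2000 bp or wider. Where both diets had H3K4me3, control intervals had a median width of 1181 bp and HFD intervals one of 1101 bp, and the HFD interval was the narrower one at 7768 members (69.8%). This share was 57.9% over all control H3K4me3 intervals with H3K4me3 in both diets, 71.5% with narrower H3K27me3 and 80.2% without H3K27me3, so that it was not particular to the members. The median fold enrichment was 8.06 in control and 7.67 in HFD, and the summits of the diets were a median of 48 bp apart. Within 2500 bp of the member centres, the length under H3K4me3 intervals was 15.04 Mb and 13.8 Mb for control and HFD, and their ratio 0.918. Over the bases of the members, all under control H3K4me3 by the rule, HFD H3K4me3 covered 11.4 Mb and the ratio was 0.842. As members were chosen by the control list, their control width could not fall under 600 bp, and the HFD list was not bound in this way. When the rule was instead put to the HFD lists, the ratio within 2500 bp was 1.01.

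HFD H3K27me3 overlapped fewer of the members than any other HFD list did. Of all HFD H3K27me3 intervals, 24.1% had a q-value of 0.05 or less, and the share of members under those was not computed. The HFD H3K27me3 list as a whole overlapped 8902 of 11600 (76.7%, 76.0% to 77.5%), against a background of 26.9%. The share was 59.2% (58.4% to 59.9%) with narrower control H3K27me3, 16.7% without it and 95.2% (93.3% to 96.6%) at 2000 bp or wider, so that members stood between the other sets with H3K27me3. An HFD interval of 1000 bp or more was found at 3485 members (30.0%, 29.2% to 30.9%; background 6.53%), an interval under 1000 bp at 5417 (46.7%; background 20.4%), and none at 2698 (23.3%; background 73.1%). Both marks were without an HFD interval at 377 members (3.25%, 2.94% to 3.59%; background 42%), whereas 2321 (20.0%; background 31.1%) had H3K4me3 and no H3K27me3 in HFD.

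**Figure D2:**
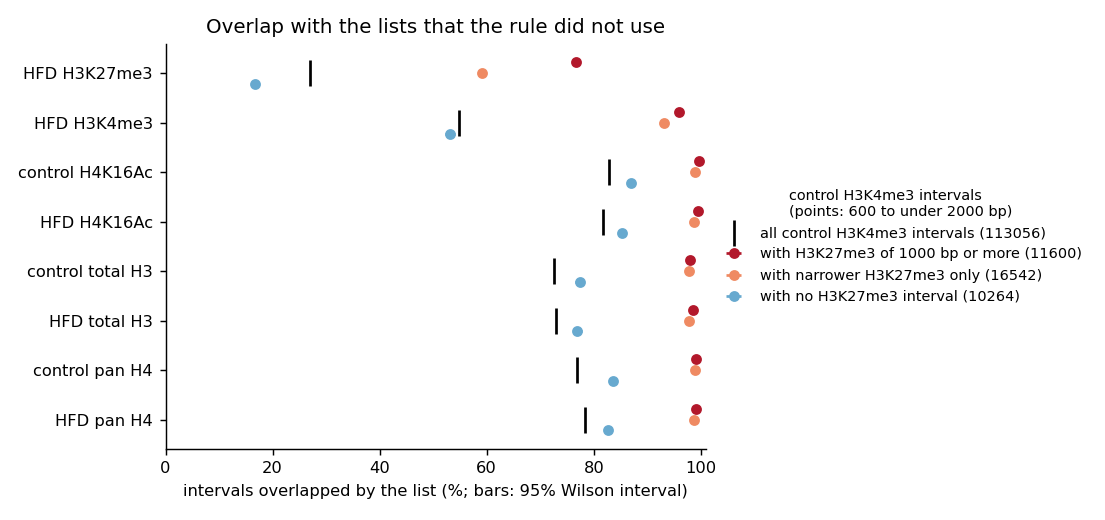
The share of control H3K4me3 intervals overlapped by each list that the rule did not use, for members (11600), intervals of the same width with narrower H3K27me3 (16542) or none (10264), and all control H3K4me3 intervals (vertical ticks). Bars are 95% Wilson intervals, mostly smaller than the points, and the sets stood furthest apart in HFD H3K27me3, at 76.7%, 59.2% and 16.7%.

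Where HFD H3K27me3 was present, its intervals were mostly narrower than those in control. At the 8902 members, the median of its width was 1340 bp for control against 868 bp for HFD, and the HFD interval was narrower at 7898 of them (88.7%). Over all 24148 control H3K4me3 intervals with H3K27me3 in both diets this share was 77.2%, and with narrower control H3K27me3 it was 71.7%. The rule held the control width of members at 1000 bp or more and did not bind the HFD width, so that nothing is read from the higher share at members. The median fold enrichment was 5.54 in control and 3.21 in HFD. The median −log10 p was 21.0 in control and 3.63 in HFD. Both values depend on depth, and the background of the HFD list was the lower one. Of the 13.6 Mb of members, control H3K27me3 covered 12.4 Mb and HFD H3K27me3 6.99 Mb, and the HFD over control ratio was 0.565. With the rule put to the HFD lists, the ratio was 0.926. At a −log10 q of at least 5, the ratio was 0.0202. Only 180 members (1.55%) had an HFD H3K27me3 interval with a −log10 q of at least 5, against 7225 (62.3%) in control. Over all control H3K4me3 intervals these shares were 0.563% in HFD and 15.2% in control.

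**Figure D3:**
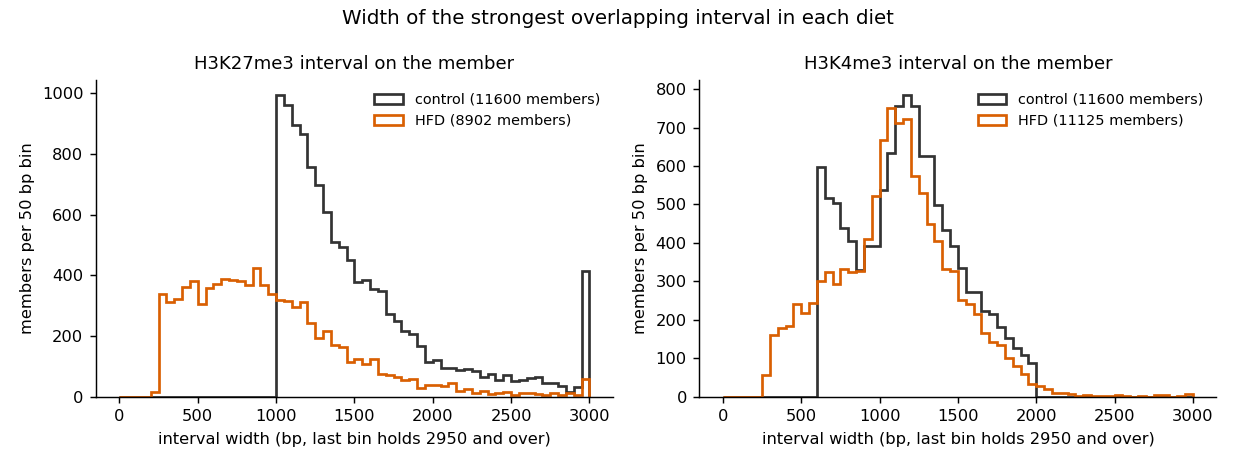
Histograms of the width of the strongest H3K27me3 (left) and H3K4me3 (right) interval on a member in control and in HFD, in bins of 50 bp. The sharp lower edges at 1000 bp and 600 bp in control are those of the rule, and the HFD H3K27me3 widths (median 868 bp) had no such edge.

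**Figure D4:**
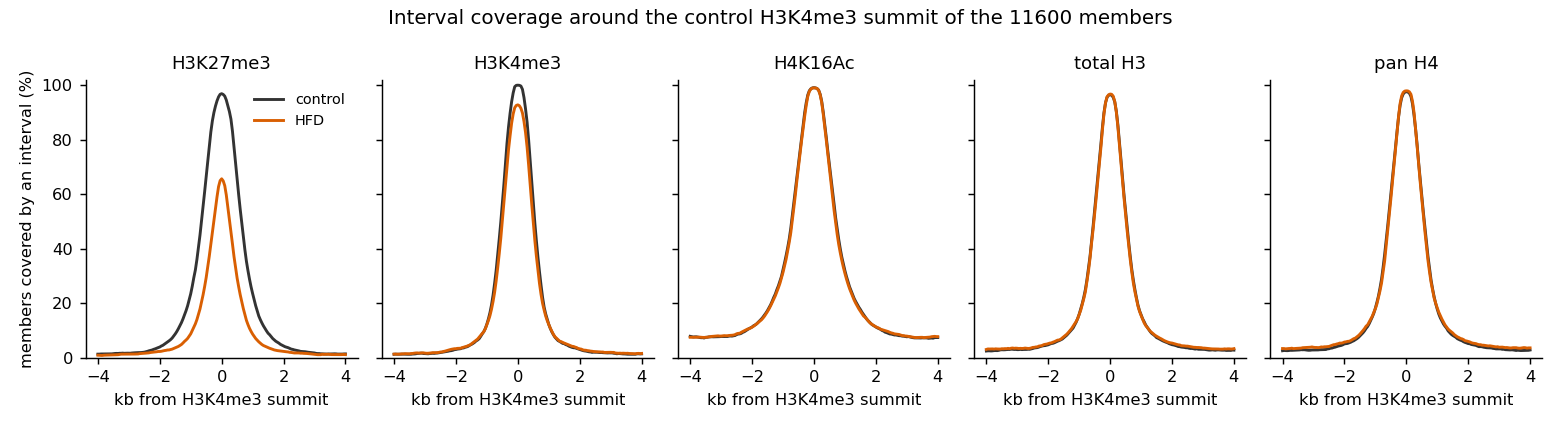
The percentage of the 11600 members that had an interval of each antibody over a given distance from the control H3K4me3 summit, in control and HFD. At the summit, H3K27me3 covered 96.9% of members in control and 65.7% in HFD and H3K4me3 100% and 92.8%. For each of H4K16Ac, total H3 and pan H4, the control curve and the HFD curve lay close to each other.

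The HFD coverage of H3K27me3 was lower than that of control on both sides of the summit. Left and right follow the genome coordinates and not the direction of genes, so that nothing is read from the likeness of the sides. At 500 bp from it, H3K27me3 covered 66.6% and 65.6% of members on the left and right in control and 29.4% and 29.2% in HFD. At 1000 bp the values were 23.5% and 23.6% in control and 8.78% and 8.70% in HFD. For H3K4me3 at 500 bp they were 56.5% and 56.8% in control and 50.3% and 49.5% in HFD. Total H3 at 500 bp gave 54.3% and 53.8% in control and 52.8% and 52.6% in HFD.

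Whether a member had an H3K27me3 interval in HFD went with the strength of its H3K4me3 in control. The intervals of the width class were put into 5 equal groups by the −log10 p of control H3K4me3. From the weakest to the strongest group, HFD H3K27me3 overlapped 34.1%, 47.2%, 67.4%, 84.2% and 94.0% of the members, which numbered 836, 1304, 2172, 3197 and 4091. With narrower control H3K27me3, the shares were 25.9%, 35.7%, 54.8%, 70.8% and 82.1%. Without it they were 12.1%, 18.7%, 28.9% and 48.9%, the last from 45 intervals, and the strongest group held none. In each group the share of the members, whose control H3K27me3 was wider by the rule, was above that of the set with narrower H3K27me3. The difference was from 8.16 to 13.5 percentage points over the 5 groups, against 17.6 without grouping. Members were also wider than that set, and the part of H3K4me3 width and strength in the difference was not tested. HFD H3K4me3 reached nearly every member from the middle group on, with 72.6%, 87.0%, 96.5%, 99.97% and 100%.

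**Figure D5:**
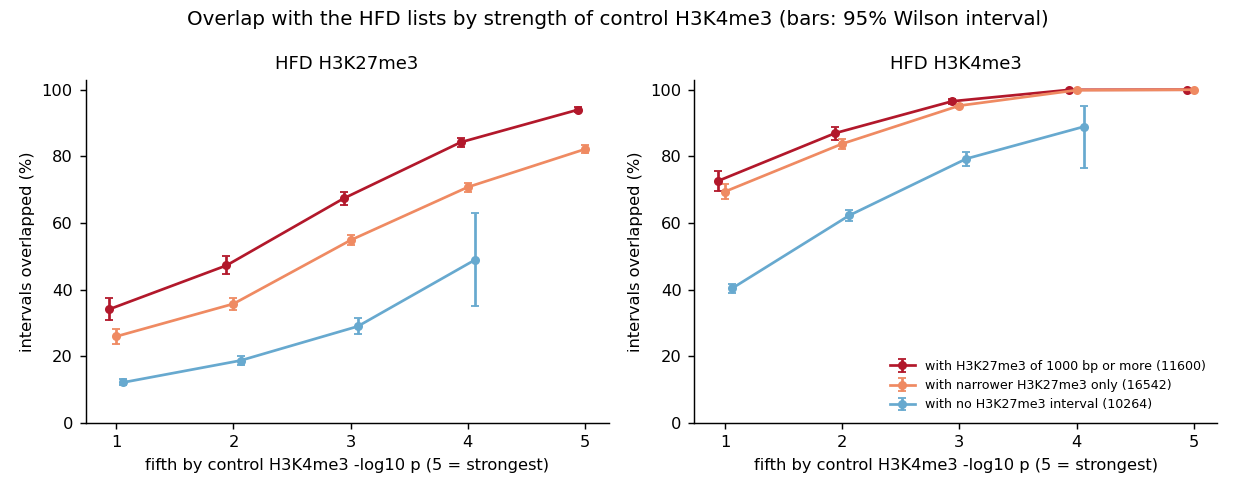
The share of intervals overlapped by HFD H3K27me3 (left) and HFD H3K4me3 (right) in 5 equal groups of the width class by control H3K4me3 −log10 p, with 95% Wilson intervals. The shares of the members ran from 34.1% to 94.0% for HFD H3K27me3 and stayed above the set with narrower H3K27me3, while for HFD H3K4me3 they met the set with narrower H3K27me3 at 100% in the strongest group.

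Grouped by the −log10 p of control H3K27me3 into 5 groups of 2320, the members showed the same order, with 44.2%, 70.9%, 81.3%, 91.4% and 95.9% overlapped by HFD H3K27me3. A wide HFD interval did not follow the strength in this way, and its share was 14.6% in the weakest group and 30.9%, 36.0%, 33.6% and 35.1% in the others. The median control H3K4me3 fold enrichment over these groups was 3.76, 5.28, 7.74, 10.5 and 12.1. A wide HFD H3K27me3 interval was most frequent at the widest H3K4me3 intervals, whose larger extent favours an overlap. It was found at 16.3% of the members of 600 to under 800 bp, 20.7% at 800 to under 1000 bp, 20.0% at 1000 to under 1200 bp, 28.6% at 1200 to under 1400 bp and 56.2% (54.3% to 58.0%) at 1400 bp or more. By the width of control H3K27me3, in the 4 groups described above, the last of 2000 bp or more, a wide HFD interval was found at 17.6%, 32.3%, 42.9% and 38.8% of the members. Any HFD interval was found at 78.8%, 77.7%, 75.7% and 71.1% in the same order. Members with H3K27me3 of like extent to H3K4me3 were overlapped by HFD H3K27me3 in 88.0% of cases (a width ratio of 0.8 to 1.2), against 61.3% at a ratio of 1.2 to 2, 58.9% above 2 and 77.9% under 0.8.

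Wide control H3K27me3 intervals were also followed from their own side. Of the 11188 on members, 78.8% (78.0% to 79.5%) overlapped HFD H3K27me3, against 45.4% (43.9% to 47.0%) of the 4084 on other control H3K4me3 intervals and 18.8% (17.4% to 20.4%) of the 2574 on none. These places differed in strength, as the median −log10 p was 14.4 on members, 3.24 on other H3K4me3 intervals and 2.77 on none. In the weakest of 5 equal groups by −log10 p the shares were 38.1%, 27.4% and 16.6%, and in the middle group 73.4%, 55.7% and 26.6%, in the same order. In the group next to the strongest the order of the first 2 turned, with 86.1% (84.8% to 87.2%) on members and 91.8% (88.7% to 94.1%) of 402 intervals on other H3K4me3, whose median width was 2208 bp against 1330 bp on members. In the strongest group the shares were 95.9% on members and 97.6% of 164 intervals on other H3K4me3. On no H3K4me3 interval, these 2 groups held 10 and 3 intervals, of which 0 and 2 overlapped HFD H3K27me3. Over all groups, a wide HFD interval was found at 30.2% on members and 20.8% on other H3K4me3. In the upper 2 groups this share was 35.2% and 34.2% on members, and 66.9% and 79.9% on other H3K4me3.

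The reverse choice gave fewer regions. The same widths put to the HFD lists picked 4920 of 34877 HFD H3K4me3 intervals of that width (14.1%). Of these, 4644 (94.4%) overlapped control H3K27me3, 3602 (73.2%) an interval of it of 1000 bp or more, and 4731 (96.2%) control H3K4me3. In comparison, 76.7% of the members overlapped HFD H3K27me3 and 30.0% a wide interval of it. The shares of the HFD choice were not computed over all HFD H3K4me3 intervals, so no background can be set beside them. Regions of both choices overlapped at 3193 members (27.5%) and at 3200 of the HFD choice (65.0%). Among the 1000 strongest H3K27me3 intervals by −log10 p, 376 in control (37.6%, 34.7% to 40.6%) and 238 in HFD (23.8%, 21.3% to 26.5%) lay on members. The set with narrower H3K27me3 held more of the 1000, with 565 in control (56.5%) and 436 in HFD (43.6%). Of the whole lists, 19.4% of control and 17.9% of HFD H3K27me3 intervals lay on members, and the control counts are favoured by the rule. Nearly all of the 1000 lay on a control H3K4me3 interval of some width, 977 in control and 974 in HFD. Of the whole lists, 75.2% of control and 60.4% of HFD H3K27me3 intervals did so.

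The values at the edges of the rule are given as a description. Of the members, 7 were exactly 600 bp wide and the widest 2 were 1998 bp. Just outside, 9 intervals 1 bp narrower than the lower edge and 2 of 2000 bp had wide H3K27me3, and in all 5318 narrower and 628 wider intervals had it. The narrowest H3K27me3 that admitted a member was 1000 bp, at 15 members, and 28 intervals whose H3K27me3 was 1 bp short of it were left out. The 995 members with H3K27me3 less than 50 bp wider than this edge had a median H3K4me3 fold enrichment of 10.5, and 78.0% had HFD H3K27me3. The 1182 intervals left out with H3K27me3 up to 50 bp narrower than it had 10.2 and 75.1%.

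Single regions showed the range within the members, with coordinates of rn6. The member chr12:13807843-13808532, 690 bp wide, lay under the widest H3K27me3 interval, of 8332 bp, with a fold enrichment of 2.06. No HFD H3K27me3 interval overlapped it. Its H3K4me3 fold enrichment was 3.32 in control and 4.02 in HFD, and that of total H3 3.20 and 2.45. The member chr3:107759436-107760217 lay under H3K27me3 of 8184 bp at 2.34-fold, with H3K4me3 at 2.04-fold in control and 3.15-fold in HFD, and chr14:108829463-108831031 under H3K27me3 of 6294 bp at 2.27-fold, with H3K4me3 at 3.52-fold and 2.74-fold. Neither had an HFD H3K27me3 interval. These 3 members thus lay under H3K27me3 of low average fold enrichment and had no HFD H3K27me3 interval. H3K4me3, total H3 and pan H4 were listed at each of them in both diets. By −log10 p, their H3K27me3 intervals stood at the 76.7, 71.1 and 77.1 percentile of the control list, against a median of 79.3 over members. At chr3:107759436-107760217, H4K16Ac was listed in HFD only, as an interval of 8191 bp.

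At the members with the highest HFD H3K27me3 the signal was extreme in all 10 lists. At chr1:180644553-180645169 the H3K27me3 fold enrichment was 7.26 in control and 7.79 in HFD, that of H3K4me3 7.61 and 8.18, that of H4K16Ac 7.23 and 7.35, that of total H3 7.93 and 7.76, and that of pan H4 7.64 and 7.78. The lowest of the 10 percentiles within the lists by −log10 p was 99.98. The member chr1:180808330-180809447, 163 kb away, had H3K27me3 at 4.26-fold in control and 5.79-fold in HFD and total H3 at 11.8-fold and 12.7-fold. The member chr19:56337665-56339365 had H3K27me3 at 5.72-fold and 6.15-fold and total H3 at 7.63-fold and 7.47-fold. The lowest percentile over the 10 lists was 99.95 for the second region and 99.97 for the third. All 5 antibodies thus ranked near the top of their lists in these regions in both diets, total H3 and pan H4 included. The part of this common signal in their H3K27me3 values was not tested. Of all members, 404 overlapped the top 1% of control total H3 intervals, and without them the share with HFD H3K27me3 was 76.0%. The share of other control H3K4me3 intervals in that top 1% was not computed, so nothing is read from this count.

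Other members had strong H3K27me3 in control and none in HFD. At chr7:121479993-121481633 control H3K27me3 covered 1071 bp at 8.61-fold, at the 99.8 percentile of its list, and no HFD interval overlapped the member. H3K4me3 there was 14.0-fold in control and 17.5-fold in HFD, H4K16Ac 4.38-fold and 4.64-fold, total H3 6.82-fold and 7.09-fold, and pan H4 7.21-fold and 10.7-fold. The same combination was found at chr1:101802486-101803405, with H3K27me3 at 9.32-fold in control and H3K4me3 at 15.9-fold and 16.3-fold, and at chr10:109756758-109757931, with 8.07-fold, and 13.0-fold and 14.4-fold. Among the summit values of H3K4me3, total H3 and pan H4, that of H3K4me3 was the highest at each of these 3 members in both diets.

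The 3 members with the highest control H3K4me3 fold enrichment also ranked high in control H3K27me3, at the 97.6, 99.6 and 98.6 percentile of that list, while in HFD H3K27me3 the first had no interval and the others stood at the 75.8 and 59.3 percentile. At chr20:8215910-8216538 control H3K4me3 reached 20.8-fold, the highest among members on assembled chromosomes, and control H3K27me3 covered 1393 bp at 10.8-fold. In HFD, H3K4me3 was 18.6-fold and no H3K27me3 interval was listed. At chr16:70665040-70666196 control H3K4me3 was 19.4-fold and H3K27me3 9.04-fold, and in HFD 18.6-fold and 3.38-fold. At chr7:114889052-114889843 the control values were 18.9-fold and 8.71-fold and the HFD values 17.1-fold and 3.11-fold. The H3K27me3 interval of this last member was 1912 bp wide in control and 345 bp in HFD.

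Among the 8 H3K27me3 intervals with 3 members, the first in chromosome order was chr1:181072466-181078344, 5879 bp at 2.13-fold. It held chr1:181072500-181073136, chr1:181073741-181075215 and chr1:181077118-181077763, with control H3K4me3 at 2.25-fold, 2.93-fold and 3.14-fold and HFD H3K4me3 at 2.61-fold, 3.82-fold and 3.74-fold. An HFD H3K27me3 interval of 5048 bp at 2.27-fold overlapped the second and the third of them, and one of 252 bp the first. The control H4K16Ac interval there was 6353 bp and the HFD one 6359 bp. H3K27me3 and H4K16Ac thus ran across all 3 H3K4me3 intervals in control, with an average fold enrichment of 2.13 and 2.10.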

How the data were processed

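ChIP-seq peak lists of 5 antibodies in 2 diets were analysed, each called by the authors on 3 libraries together. Reads were aligned to rn6 with Bowtie2, and peaks were called with MACS2, followed by deepTools, per the labels and the study's methods. Versions, the use of an input and the handling of duplicates are not given in the sources used here. The deposited lists hold a fold enrichment, a ratio to the local background, and −log10 p-values and q-values computed by the authors. In the 6 narrow lists (H3K4me3, total H3, pan H4) these belong to summits, and an interval with several summits was counted once with its strongest. In the 4 broad lists (H3K27me3, H4K16Ac) they are averages over the interval.

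Overlaps of at least 1 bp, covered bases, rank correlations and shares with 95% Wilson intervals were computed with Python 3.11.15, numpy 2.4.6, pandas 2.3.3 and scipy 1.17.1, and plots drawn with matplotlib 3.10.9. Wilson intervals reflect counting error alone, because neighbouring regions in pooled libraries are not replicates. Where several intervals of a list overlapped a region, the one with the highest −log10 p gave its values. Background pileups and summit pileups were recovered from the fold enrichment and p, assuming that MACS2 writes (k + 1) / (b + 1) and a Poisson p. A whole number of fragments gave the listed p within 0.1% at over 99% of members in each narrow list. This check did not cover the broad lists, whose values are averages over intervals. The overlap and pileup functions were tested on simulated data.

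Members and comparison sets were chosen with earlier results of these data known. The regions named were the 3 members under the widest control H3K27me3, the 3 with the highest HFD H3K27me3 −log10 p, the 3 with the highest control H3K27me3 −log10 p and no HFD interval, the 3 with the highest control H3K4me3 fold enrichment, all on assembled chromosomes and 1 per H3K27me3 interval in the first 3 groups, and the H3K27me3 interval with the most members, ties by position. Gene lists and sequences of the regions were not used here, because the reference tables at hand are for GRCr8 and not for the build of the files. No test between diets was made, since each had 1 list per antibody.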

Additional observations from a re-analysis of the deposited data

How the results depend on the processing

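No paired analysis was possible because each list was called on the 3 libraries of a group together, and for the same reason leaving out a replicate could not be run. The background pileup of the HFD H3K27me3 list was the lowest of the 10, and the part of depth in its values was not tested. Of 57 alternatives, 25 left the value within 1.5 times (counts and ratios) or inside its 95% Wilson interval (shares), 31 moved it further and 1 reversed it. The cause was not tested for any of them.

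The number of members was 4365 with H3K27me3 of 1500 bp or more, 18444 with 750 bp or more, 7157 with a −log10 q of at least 5 and 4920 with the rule on the HFD lists. It was 11133 when control H3K27me3 was cut to the length of the HFD list, and 11124 when control H3K4me3 was cut likewise, the set behind the shares and ratios given for lists of equal length.

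The share of members with HFD H3K27me3 was 1.55% with a −log10 q of at least 5, 54.6% when 50% of the member had to be overlapped, 74.0% with control H3K27me3 of 1500 bp or more, 78.6% with lists of equal length, 94.4% for regions chosen on the HFD lists and 76.0% without the top 1% of control total H3, an alternative chosen after seeing the data. In the same order, the share with wide HFD H3K27me3 was 1.04%, 28.2%, 41.4%, 31.0%, 73.2% and 29.0%. For HFD H3K4me3 it was 78.4% at the stricter q, 90.1% with 50% overlap, 94.98% with H3K27me3 of 1500 bp or more and 96.9% with lists of equal length.

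At the stricter q, control H4K16Ac overlapped 65.4% of members, total H3 89.3% and pan H4 90.1%. With 50% overlap these were 98.7%, 94.6% and 97.0%, and with H3K27me3 of 1500 bp or more 99.3%, 97.3% and 98.8%. The ratio of H3K27me3 bases was 0.0202 at the stricter q and 0.926 for regions chosen on the HFD lists, below 1 in each alternative. The ratio of H3K4me3 bases reversed to 1.01 for regions chosen on the HFD lists and was between 0.842 and 0.927 in the others.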
